A study of Mus musculus with 6 samples.

Results

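The 10 genes described here, whose products take up, bind and activate fatty acids, were followed in differentiated C3H10T1/2 cells after Ybx1 knockdown. They were chosen by symbol, with earlier results of these data known. They are Lpl and Cd36, the transporter genes Slc27a1 and Slc27a4, the binding protein genes Fabp4 and Fabp5, and the acyl-CoA synthetase genes Acsl1, Acsl3, Acsl4 and Acsl5. All 10 were among the 16423 gene symbols of the deposited table. C3H10T1/2 is a mouse mesenchymal line that can form adipocytes. Every culture, control cultures included, received an adipogenic medium for 2 days (0.5 mM 3-isobutyl-1-methylxanthine, 1 µM dexamethasone, 850 nM insulin, 1 nM triiodothyronine, 125 nM indomethacin and 1 µM rosiglitazone). A further 2 days in triiodothyronine, insulin and rosiglitazone followed. On day 4 the cells were transfected with control siRNA (siNC, 3 libraries, wild type per the labels) or with siRNAs against Ybx1 (siYBX1, 3 libraries), and RNA was taken 48 h later. Rosiglitazone is an agonist of the nuclear receptor PPARG and was present in both groups. The labels do not say whether replicates were separate cultures, so p-values reflect variation among libraries that may be technical only.

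In adipocytes, lipoprotein lipase frees fatty acids from circulating triglyceride. CD36 and the fatty acid transport proteins help them across the plasma membrane, and the fatty acid binding proteins carry them through the cytosol. Long-chain acyl-CoA synthetases couple them to coenzyme A, the form that enters triglyceride synthesis or oxidation. Several of these genes are classical PPARG targets. YBX1, the protein whose mRNA was targeted, belongs to the cold-shock proteins, binds many RNAs, and takes its name from the Y box, a DNA element with an inverted CCAAT.

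Of the 10 genes, Slc27a1 alone passed the test across all genes, and it rose 1.65-fold. For orientation the RefSeq promoter windows of Slc27a1 and of its relative Slc27a4, which did not pass, are printed here because the CCAAT pentamer is the core of the Y box. Each window holds the 250 bases before an annotated start, 5′ to 3′ on the gene's strand, in GRCm38.p6, another build than the GRCm39 of the processing notes; capitals mark CCAAT. RefSeq gives 3 such windows for Slc27a1. The one that overlaps an annotated exon is not printed and holds CCAAT on neither strand.
Slc27a1, first start, chr8:71568621-71568870, + strand: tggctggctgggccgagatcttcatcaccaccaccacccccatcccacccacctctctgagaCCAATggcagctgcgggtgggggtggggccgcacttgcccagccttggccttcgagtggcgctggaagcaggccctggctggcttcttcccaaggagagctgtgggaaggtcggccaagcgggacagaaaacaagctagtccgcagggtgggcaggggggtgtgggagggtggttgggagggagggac
Slc27a1, downstream start, chr8:71570344-71570593, + strand: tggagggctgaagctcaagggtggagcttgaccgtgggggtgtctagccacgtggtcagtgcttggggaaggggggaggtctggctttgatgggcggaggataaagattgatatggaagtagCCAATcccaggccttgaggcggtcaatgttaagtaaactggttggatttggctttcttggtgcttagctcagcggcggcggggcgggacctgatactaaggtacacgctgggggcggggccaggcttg
Slc27a4, chr2:29802384-29802633, + strand: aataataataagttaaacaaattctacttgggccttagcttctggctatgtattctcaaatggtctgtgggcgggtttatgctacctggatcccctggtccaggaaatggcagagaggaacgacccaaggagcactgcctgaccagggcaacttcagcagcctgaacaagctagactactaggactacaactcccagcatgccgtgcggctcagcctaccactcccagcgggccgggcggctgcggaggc
CCAAT began 188 bases before the first Slc27a1 start and 128 bases before the downstream one. Both lay on the gene's own strand, so neither was inverted as in the Y box. Neither CCAAT nor its complement ATTGG was found in the Slc27a4 window. Across the genes of interest 7 of 10 had a window in the table, and 6 of their 10 windows, from 5 genes, held CCAAT on one strand or the other. These were windows of Acsl1, Acsl3, Acsl5, Cd36 and Slc27a1, against 33.8% of all 32851 windows of that length. Only the matches in the Acsl1 window were inverted. TATAAA was in none of the 10 windows and in 12.4% of all windows, searched on both strands. The promoters of Fabp4, Fabp5 and Lpl were not matched. A match of letters describes a sequence and does not show binding.

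Whole reads could be recovered from the deposited FPKM values (fragments scaled by gene length and library total), and the totals behind them were 31957411 to 35410308 reads per library. The target was lower as labelled: Ybx1 was at 135, 134 and 130 FPKM in siNC and at 59.3, 67.9 and 61.3 FPKM in siYBX1. The test was limma on log2(FPKM + 1), with Benjamini-Hochberg adjustment over 10341 genes whose mean reached 1 FPKM and a threshold of 0.05. By this test 20.6% of all tested genes were called (9.54% higher and 11.1% lower in siYBX1), and 40.9% had groups that did not overlap. Counts of calls fell to 593 higher and 608 lower without siYBX1 replicate 1, and to 543 and 762 without siYBX1 replicate 2, from 987 and 1145, while 751 were lower without siNC replicate 3. One control library stood apart. Per gene, a chi-square of recovered reads came to 19.9 and 23.2 for siNC replicate 1 set against each other control, and to 4.64 for those controls set against each other, so the log2 fold changes that it moved most are given with and without it. Of 6 defining genes of adipocytes 5 had values. Adipoq (468 to 707 FPKM over the 6 libraries), Cfd (346 to 478 FPKM), Cidec (174 to 239 FPKM) and Plin1 (113 to 139 FPKM) were abundant. Retn was scarce, at 0.424 to 1.23 FPKM, and Lep had no value. Among genes of brown adipocytes Cox8b (101 to 174 FPKM) and Cidea (16.5 to 23.2 FPKM) were present, while Ppargc1a, Dio2 and Prdm16 stayed below 1 FPKM. Ucp1 was not analysed here.

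Expression levels of the 10 genes, which FPKM allows to compare per length, spanned from Fabp4 down to Slc27a1 in a nearly fixed order. In siNC the mean FPKM was 1481 for Fabp4, 237 for Fabp5, 161 for Acsl1, 41.8 for Acsl3, 39.5 for Cd36, 32.9 for Lpl, 25.2 for Acsl4, 25.1 for Acsl5, 13.2 for Slc27a4 and 2.11 for Slc27a1. Fabp4 ranked 21st by mean among all 16423 genes and Slc27a1 ranked 8888th. Neighbours whose siNC libraries overlapped in range were Fabp5 and Acsl1, Acsl3 and Cd36, Cd36 and Lpl, and Acsl4 and Acsl5. The other neighbours were separate in all 3 libraries of each. In siYBX1 the order was the same, except that Cd36 (45.9 FPKM) stood above Acsl3 (42.6 FPKM), again with overlapping libraries. Fabp4 alone made up 71.8% ± 1.26 (SD, n = 3) of the summed FPKM of the 10 genes in siNC and 73.6% ± 0.993 (SD, n = 3) in siYBX1.

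**Figure D1:**
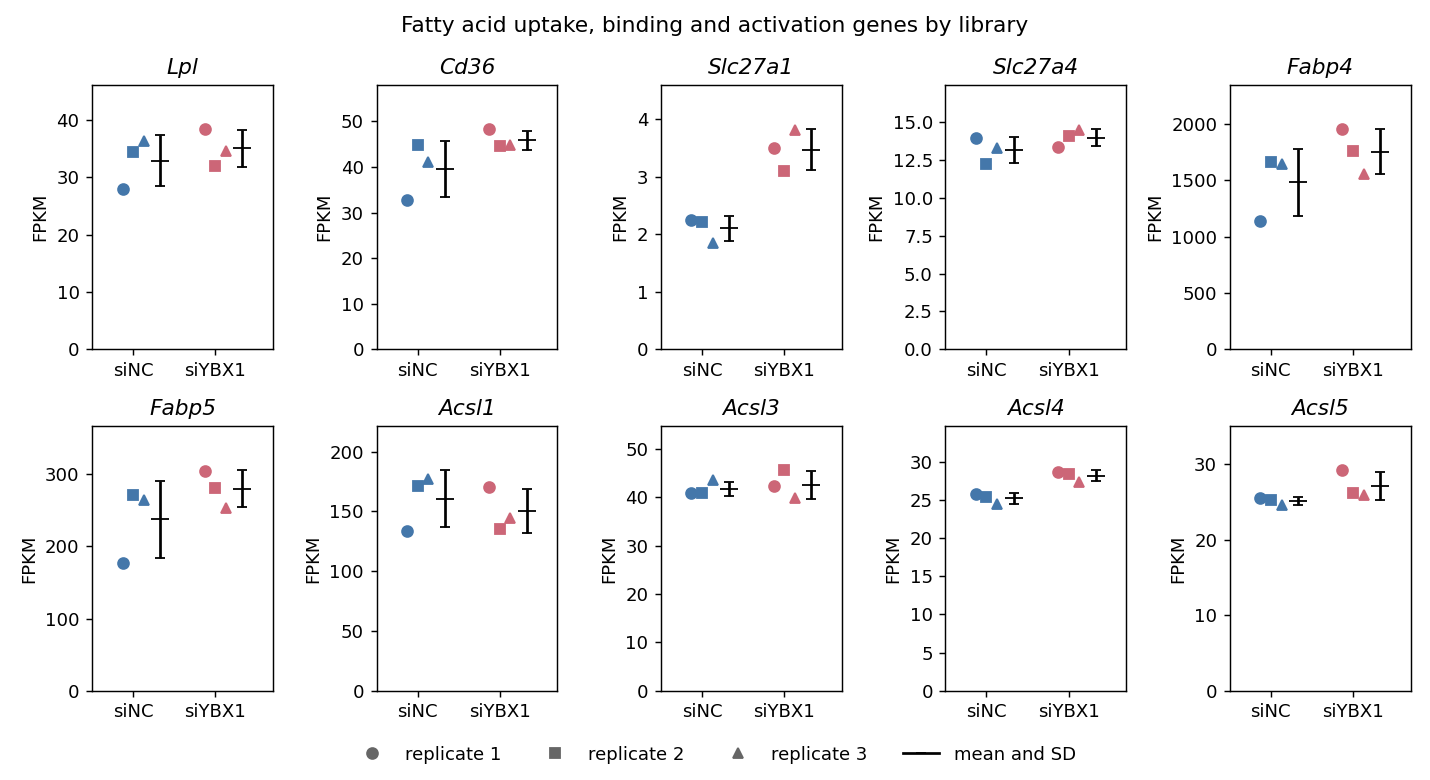
FPKM (vertical axes from 0) of the 10 genes in each library, with siNC in blue and siYBX1 in red; symbols give the replicate number and black bars the mean and SD (n = 3). The groups are separate for Slc27a1, Acsl4 and Acsl5, and siNC replicate 1 lies well below the other controls for Lpl, Cd36, Fabp4, Fabp5 and Acsl1.

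Read by count, 1 of the 10 genes was called higher and none lower, against 9.54% and 11.1% of all tested genes, so the share of calls lay near or below the background. In 3 of the 10 the groups did not overlap (Slc27a1, Acsl4 and Acsl5, siYBX1 above siNC each time), against 40.9% of all tested genes in either direction (19.0% with siYBX1 higher and 21.9% with it lower). The median log2 fold change of the 10 was 0.13 and 9 of them had a positive value. Over all 10341 tested genes the median was -0.011 and 4883 were positive. Without siNC replicate 1 the median of the 10 was 0.086 and 8 were positive, and with TPM it was 0.080, also with 8 positive.

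At the cell surface, Lpl and Cd36 did not pass. Lpl was at 28.0, 34.4 and 36.4 FPKM in siNC replicates 1 to 3 and at 38.4, 32.1 and 34.7 FPKM in siYBX1. The lowest value is that of siNC replicate 1, and the other 5 libraries are interleaved. Its log2 fold change was 0.093 (95% interval -0.11 to 0.30, adjusted p = 0.512, limma), and -0.017 without siNC replicate 1. Cd36, the scavenger receptor that binds long-chain fatty acids, was at 32.7, 44.8 and 41.2 FPKM in siNC and at 48.3, 44.5 and 44.7 FPKM in siYBX1. Here too siNC replicate 1 was lowest, at 76.1% of the mean of the other controls, and siNC replicate 2 lay within the siYBX1 range. The log2 fold change of Cd36 was 0.22 (95% interval 0.0082 to 0.43, adjusted p = 0.125, limma). It was 0.092 (adjusted p = 0.289) without siNC replicate 1 and passed at 0.31 (adjusted p = 0.0373) without siNC replicate 2.

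The transporter genes differed from each other. Slc27a1 encodes FATP1, a membrane protein of muscle and fat that also has acyl-CoA synthetase activity. It was at 2.25, 2.22 and 1.85 FPKM in siNC and at 3.50, 3.10 and 3.82 FPKM in siYBX1, with 301 to 586 recovered reads per library. Every siYBX1 library was above every siNC library. The mean rose from 2.11 ± 0.220 to 3.47 ± 0.357 FPKM (SD, n = 3 each). On the log2(FPKM + 1) scale, which understates changes at such low levels, the fold change was 0.53 (SE 0.083, 95% interval 0.34 to 0.71, adjusted p = 0.00217, limma). The call was kept under all 13 alternatives run, with values from 0.47 to 0.72 and adjusted p-values up to 0.0258. By exact permutation of the libraries, two-sided, p was 0.1, which is the smallest that 3 against 3 allow.

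Slc27a4, which encodes FATP4, was at 14.0, 12.2 and 13.3 FPKM in siNC and at 13.3, 14.1 and 14.4 FPKM in siYBX1. The groups overlapped, and the log2 fold change was 0.081 (95% interval -0.056 to 0.22, adjusted p = 0.376, limma). Slc27a1 thus made up 13.8% ± 1.54 (SD, n = 3) of the summed FPKM of both transporter genes in siNC and 19.9% ± 1.61 (SD, n = 3) in siYBX1, and these shares did not overlap between the groups (exact two-sided permutation p = 0.1).

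Other genes of the family were scarce. Slc27a3 was at 1.66 ± 0.363 FPKM in siNC and 1.22 ± 0.129 FPKM in siYBX1 (SD, n = 3 each; adjusted p = 0.1002, limma), with a log2 fold change of -0.25. It was -0.16 (adjusted p = 0.270, limma) without siNC replicate 1 and passed at -0.36 (adjusted p = 0.0249) without siNC replicate 2. Slc27a6, whose mean lay under the filter, was at 1.18, 1.33 and 1.12 FPKM in siNC and at 0.554, 0.587 and 0.693 FPKM in siYBX1, from 103 to 118 and from 46 to 60 reads. All siYBX1 values were below all siNC values, opposite in direction to Slc27a1. In the fit without the filter its log2 fold change was -0.46 (adjusted p = 0.00991, limma), and with voom on recovered reads it was -0.98.

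Fabp4 and Fabp5 encode the adipocyte and epidermal fatty acid binding proteins, small cytosolic carriers whose genes lie in 1 cluster on chromosome 3. Fabp4 was at 1136, 1665 and 1642 FPKM in siNC and at 1953, 1760 and 1552 FPKM in siYBX1. Fabp5 followed the same outline, at 176, 272 and 264 FPKM in siNC and at 305, 281 and 253 FPKM in siYBX1. For both genes siNC replicate 1 was far below the rest and siYBX1 replicate 3 was below the other 2 controls. The log2 fold change of Fabp4 was 0.26 (95% interval -0.052 to 0.57, adjusted p = 0.209, limma), and 0.080 without siNC replicate 1. That of Fabp5 was 0.26 (95% interval -0.050 to 0.57, adjusted p = 0.207, limma), and 0.060 without that library.

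The ratio of Fabp4 to Fabp5 within a library hardly moved, from 6.12 to 6.44 over all 6 libraries, with a coefficient of variation of 2.14%. By contrast the coefficient of variation of the levels within siNC was 20.2% for Fabp4 and 22.3% for Fabp5. Reads shared between Fabp5 and its pseudogenes could have been counted in ways the sources used here do not state, so its level is uncertain. The cluster neighbours Pmp2 and Fabp12 reached at most 0.0211 and 0.0375 FPKM in any library. Both main genes are short (recovered lengths of 869 and 953 bases), and after a correction for gene length their log2 fold changes were 0.17 each.

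Adipocyte genes outside the pathway showed where the low control stands. In siNC replicate 1 Fabp4 was at 68.7%, Fabp5 at 65.9% and Acsl1 at 76.7% of the mean of the other siNC libraries, Adipoq at 67.7%, Cidec at 77.2%, and Plin1 at 97.1%. The summed FPKM of the 5 adipocyte genes with values was 1181 in that library, 1533 to 1544 in the other controls and 1216 to 1292 in siYBX1. All 4 tested members had negative log2 fold changes (median -0.22), and 1 of them was called lower, against 11.1% of all tested genes. That gene was Cfd, which encodes adipsin, at 395, 461 and 478 FPKM in siNC and at 355, 362.5 and 346 FPKM in siYBX1. Its log2 fold change was -0.32 (adjusted p = 0.0136, limma), and -0.40 (adjusted p = 0.000517) without siNC replicate 1. It did not pass without siNC replicate 3 (adjusted p = 0.0570), without siYBX1 replicate 3 (adjusted p = 0.0506) or without the filter (adjusted p = 0.0668). Plin1 was lower in every siYBX1 library than in any siNC library, with a log2 fold change of -0.18 (adjusted p = 0.0537, limma). In bulk RNA, fewer cells of a type and less RNA per cell cannot be told apart. Of 6 macrophage genes 5 stayed below 1 FPKM in every library. Adgre1 and Ptprc were listed at 0 in all of siYBX1 and reached at most 0.00858 and 0.00965 FPKM in siNC. The list's sum was 24.4 FPKM in siNC replicate 1, 10.9 to 12.9 FPKM in the other controls and 6.92 to 11.2 FPKM in siYBX1, nearly all of it Cd68. The 3 endothelial genes with values summed to at most 0.136 FPKM. The list of smooth muscle and myofibroblast genes summed to 577 to 647 FPKM in siNC and 2011 to 2110 FPKM in siYBX1, and 4 of 4 tested members were called higher, against 9.54% of all tested genes. Its other 2 members were below the filter and had lower means in siYBX1. Myh11 averaged 0.134 FPKM in siNC and 0.0887 FPKM in siYBX1, with groups that did not overlap, and Cnn1 was at 0.0720 to 0.140 FPKM in siNC and at 0.0696 to 0.0771 FPKM in siYBX1. The 5 progenitor genes with values, Ly6a foremost, summed to 539 to 559 FPKM in siNC and 496 to 519 FPKM in siYBX1. The part of these markers in the values of Slc27a1 or the other genes was not tested.

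None of the long-chain acyl-CoA synthetase genes passed. Acsl1, the main synthetase of fat cells, was at 134, 171 and 177 FPKM in siNC and at 170, 135 and 145 FPKM in siYBX1. Each group held 1 library that resembled the other group. The log2 fold change was -0.093 (95% interval -0.33 to 0.15, adjusted p = 0.576, limma), and -0.22 (adjusted p = 0.0799) without siNC replicate 1. Acsl3, whose protein is found on nascent lipid droplets, was at 40.9, 40.9 and 43.5 FPKM in siNC and at 42.4, 45.6 and 39.9 FPKM in siYBX1 (log2 fold change 0.027, 95% interval -0.10 to 0.16, adjusted p = 0.779, limma). Its sign changed under 3 of 13 alternatives.

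Acsl4, which prefers arachidonic acid and similar polyunsaturated substrates, came closest to the threshold among the genes that missed it. It was at 25.8, 25.4 and 24.4 FPKM in siNC and at 28.7, 28.4 and 27.3 FPKM in siYBX1, with no overlap. The log2 fold change was 0.15 (SE 0.051, 95% interval 0.042 to 0.27, adjusted p = 0.0544, limma). It passed without siNC replicate 1 (0.17, adjusted p = 0.0403), with voom on recovered reads (0.16, adjusted p = 0.0452) and after the length correction (0.20, adjusted p = 0.0235). Over all 13 alternatives the adjusted p ran from 0.0235 to 0.204. Acsl5 was at 25.5, 25.2 and 24.6 FPKM in siNC and at 29.2, 26.2 and 25.9 FPKM in siYBX1. The groups were again separate, but siYBX1 replicate 1 stood above the other 2 (log2 fold change 0.10, 95% interval -0.024 to 0.23, adjusted p = 0.218, limma), and the value was 0.052 without it.

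As a share of the summed FPKM of the 4 synthetases Acsl1 stood at 63.4% ± 3.63 (SD, n = 3) in siNC and 60.4% ± 2.78 (SD, n = 3) in siYBX1, and the groups overlapped (exact two-sided permutation p = 0.3). Acsl6, the remaining member of that family, was below 0.01 FPKM in every library.

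**Figure D2:**
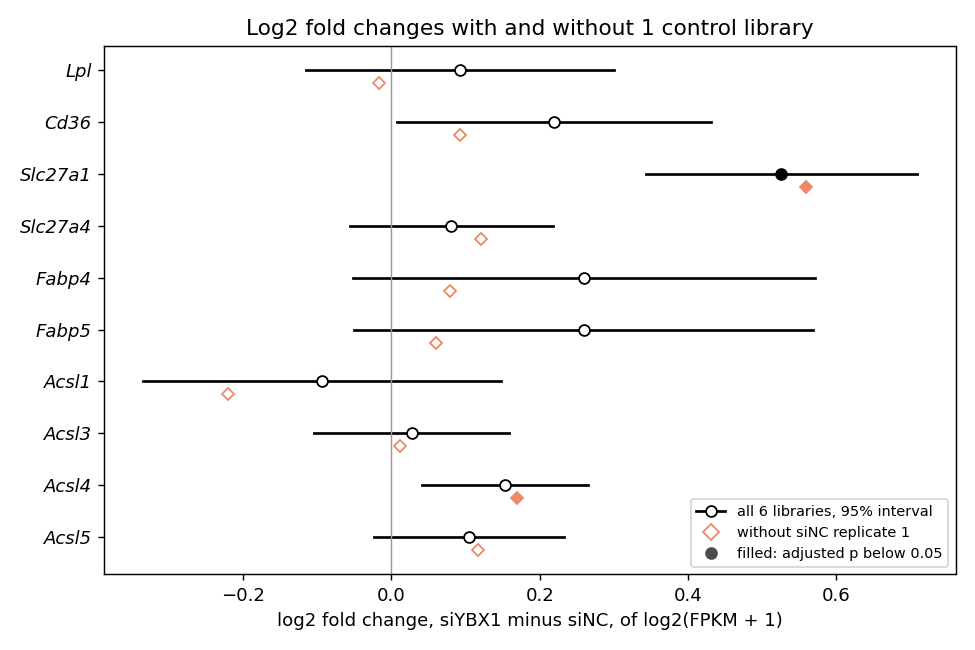
Log2 fold changes (horizontal axis, siYBX1 minus siNC, of log2(FPKM + 1)) of the 10 genes, with circles and 95% intervals from all 6 libraries and orange diamonds for the fit without siNC replicate 1; filled symbols have an adjusted p below 0.05. Slc27a1 is filled in both, Acsl4 only without that library, and Fabp4, Fabp5, Cd36, Lpl and Acsl1 move left.

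Ratios within a library do not depend on how libraries are scaled, so the 45 pairs of genes were compared in that way. In 11 pairs (24.4%) the ratio did not overlap between the groups, against 40.7% of all pairs of tested genes, so such pairs were no more common here than elsewhere. Slc27a1 was in 7 of them and Acsl1 in 5, the pair of both included. Of the 9 pairs with Acsl1, those with Slc27a4, Acsl3, Acsl4 and Acsl5 overlapped between the groups. The ratios given next were picked from pairs that did not overlap. The ratio of Fabp4 to Acsl1 was 8.50, 9.72 and 9.26 in siNC and 11.5, 13.0 and 10.7 in siYBX1. The ratio of Cd36 to Acsl1 was 0.245, 0.261 and 0.232 in siNC and 0.283, 0.329 and 0.309 in siYBX1, and that of Lpl to Acsl1 was 0.209, 0.201 and 0.205 against 0.226, 0.237 and 0.240. In siNC replicate 1, where all 4 genes were low, these ratios lay beside those of the other controls. Each had an exact permutation p of 0.1 (two-sided), the smallest possible here, before any adjustment over the pairs. A length bias that differs between libraries would not cancel in such ratios. Recovered lengths were 6608 bases for Acsl1, 869 for Fabp4, 3649 for Cd36 and 4049 for Lpl. With the length correction their log2 fold changes were -0.036, 0.17, 0.24 and 0.12, against -0.093, 0.26, 0.22 and 0.093 without it. The ratios were not corrected for length.

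**Figure D3:**
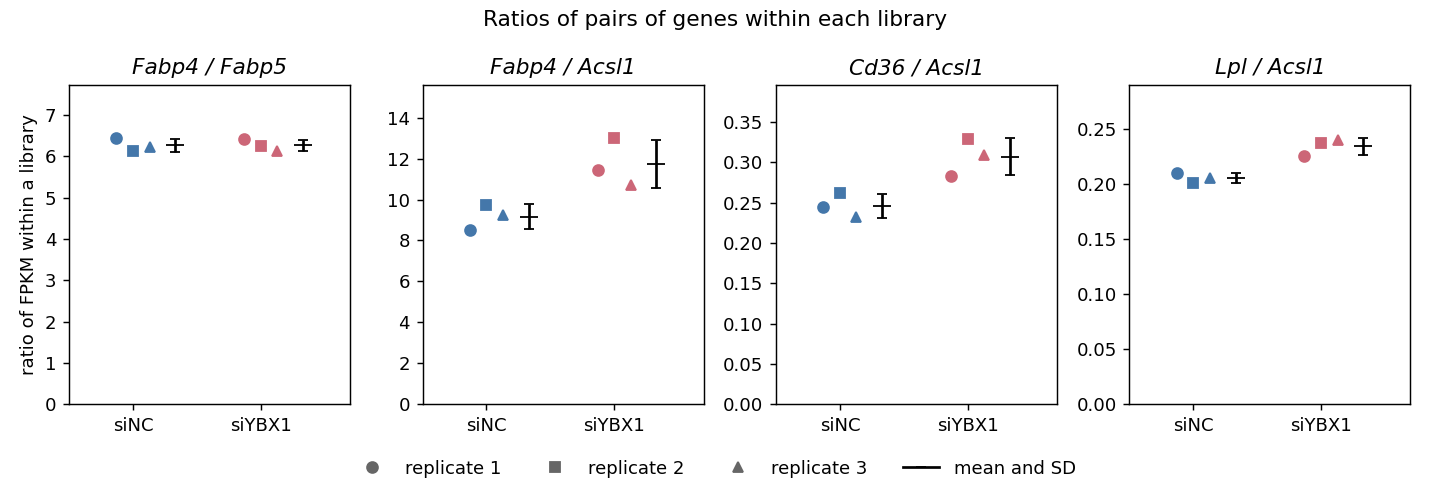
Ratios of FPKM within each library (vertical axes from 0) for 4 pairs of genes, with siNC in blue, siYBX1 in red, symbols for replicate numbers and black bars for mean and SD (n = 3). Fabp4 to Fabp5 stays between 6.12 and 6.44, while the 3 ratios over Acsl1 are higher in every siYBX1 library than in any siNC library. Ratios of Acsl1 with Slc27a4, Acsl3, Acsl4 and Acsl5, which overlap between the groups, are not drawn.

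Further genes of the pathway were taken from 6 lists with 85 symbols, of which 70 had values and 41 were abundant enough to test. In all, 5 were called higher and 3 lower of 41, against 9.54% and 11.1% of all tested genes, with a median log2 fold change of -0.012. Leaving out siYBX1 replicate 2 gave 3 higher and 2 lower, and leaving out siNC replicate 2 gave 4 higher and 5 lower. When libraries were rescaled to a common FPKM sum (TPM) 6 were lower.

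Among genes that handle lipoprotein lipase or its products, 4 of 10 tested were called, 2 in each direction, against 20.6% of all tested genes in either direction (median log2 fold change -0.11). Angptl4, a secreted inhibitor of the lipase, was at 78.6, 85.3 and 88.9 FPKM in siNC and at 116, 109 and 101 FPKM in siYBX1. Its groups were well apart, and it rose 1.29-fold (0.36 ± 0.066 SE on the log2 scale, limma adjusted p = 0.00441). Furin, a convertase that cleaves ANGPTL4 and the lipase among other proteins, rose from 17.8 ± 1.42 to 22.9 ± 1.01 FPKM (SD, n = 3 each; adjusted p = 0.00513). Lipoprotein receptors went the other way. Vldlr fell from 5.37 ± 0.460 to 4.01 ± 0.356 FPKM (limma adjusted p = 0.0111). Lrp1 fell from 99.3 ± 3.42 to 82.5 ± 6.65 FPKM (limma adjusted p = 0.0154, and 0.0616 without siYBX1 replicate 2). The others with the highest levels did not pass, namely the receptor chaperone Lrpap1 (-0.040), Lmf2, a relative of lipase maturation factor 1 (-0.049), and Sel1l of the endoplasmic reticulum (-0.17). Without siNC replicate 1 these were at -0.12, 0.026 and -0.087.

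In the list of CD36 trafficking and caveolae 1 of 7 tested genes was called, against 20.6% of all tested genes in either direction. Cav1, the coat protein of caveolae, rose from 80.4, 84.7 and 83.4 FPKM in siNC to 110, 110 and 110 FPKM in siYBX1 (0.40 ± 0.048 SE on the log2 scale, limma adjusted p = 0.000522). The siYBX1 libraries agreed within a standard deviation of 0.207 FPKM. Cavin1 (0.11), Got2 (-0.10) and Cav2 (0.085) did not pass.

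Acyl-CoA binding proteins and thioesterases, which hold acyl-CoA or split it again, had 2 of 10 tested genes called, both higher. Of all tested genes 9.54% were called higher and 11.1% lower. Acot9, a mitochondrial thioesterase, rose from 55.9 ± 0.446 to 66.3 ± 4.15 FPKM (SD, n = 3 each; adjusted p = 0.0131, limma), and Them4 from 2.99 ± 0.234 to 3.88 ± 0.275 FPKM (adjusted p = 0.0193). Neither passed without siYBX1 replicate 2. Them4 also missed without siNC replicate 2 (adjusted p = 0.0521), without the filter (0.0684) and with voom on recovered reads (0.0513). Dbi, the abundant acyl-CoA binding protein, was at 261, 351 and 352 FPKM in siNC and at 430, 394 and 345 FPKM in siYBX1 (log2 fold change 0.29, limma adjusted p = 0.103). Without siNC replicate 1 the value was 0.14. Like Fabp4 and Fabp5 it was lowest in siNC replicate 1 and highest in siYBX1 replicate 1. Acot13 (0.088) and Acbd5 (-0.0061) did not pass.

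None of 7 other acyl-CoA synthetase genes was called, against 20.6% of all tested genes in either direction. Among them were Aacs (-0.20, adjusted p = 0.0557, limma), Acsm3 (0.072) and Acss2 (-0.016). Aacs, the acetoacetyl-CoA synthetase, passed under 4 alternatives, one of them without siNC replicate 1 (-0.25). Among transcriptional regulators Srebf1, a driver of lipogenic genes, fell from 19.6 ± 0.539 to 16.2 ± 0.428 FPKM (SD, n = 3 each; adjusted p = 0.00660, limma). It was the only call among 6 tested, against 20.6% of all tested genes in either direction. Pparg was at 80.1, 94.3 and 87.9 FPKM in siNC and at 95.2, 89.2 and 92.7 FPKM in siYBX1 (0.081, limma adjusted p = 0.389, and 0.021 without siNC replicate 1), and Cebpb (0.17) and Rxra (-0.060) did not pass either.

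**Figure D4:**
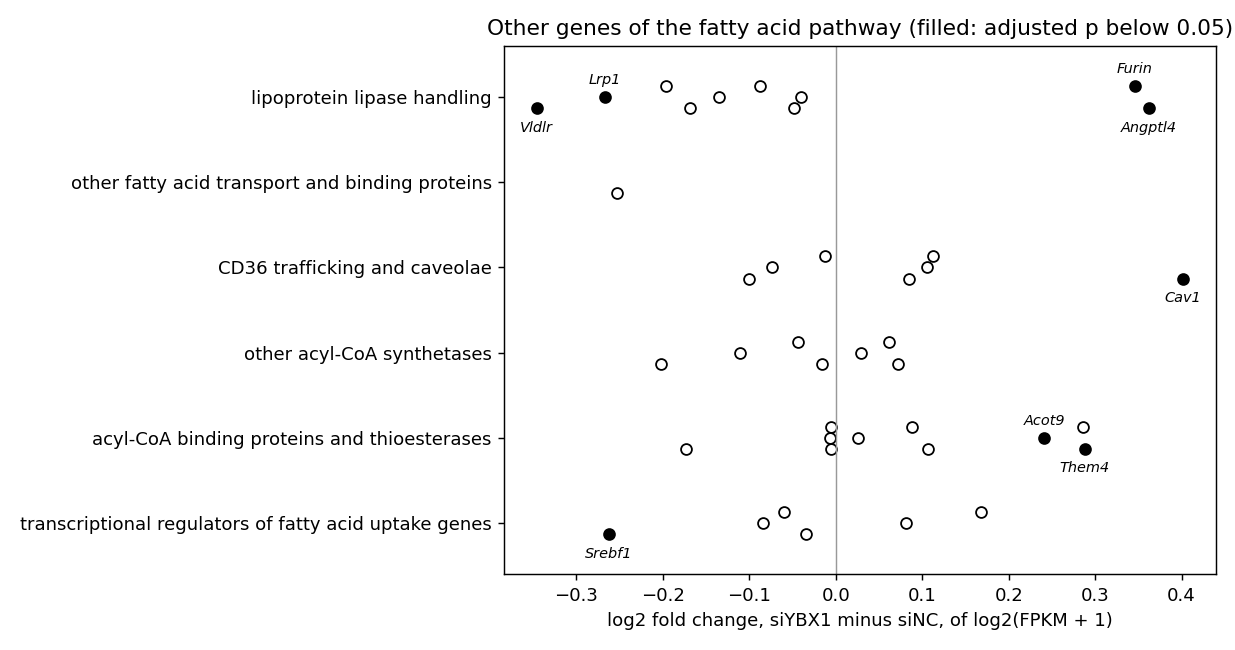
Log2 fold changes (horizontal axis, siYBX1 minus siNC, of log2(FPKM + 1)) of the 41 tested genes of 6 fatty acid pathway lists (vertical axis), 1 point per gene; filled points have an adjusted p below 0.05 and are named. The called genes are Angptl4, Furin, Cav1, Acot9 and Them4 on the right and Vldlr, Lrp1 and Srebf1 on the left.

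Other transcripts with the most similar outline over the 6 libraries were sought among the 7341 genes that averaged 5 FPKM or more, by Pearson r of log2(FPKM + 1), as a description. For Fabp4 these were Timm8b, Colec12 and Pdrg1 (r from 0.9953 to 0.9962), and 355 genes exceeded 0.9. Cd36 was followed most closely by Cyth1, Casp8 and Snx10 (0.9945 to 0.9955), with 361 genes above 0.9. For Lpl they were Fads2, Mknk2 and Idh3g (0.9867 to 0.9928), and for Acsl1 Bcat2, Pank3 and Paqr4 (0.9781 to 0.9816), with 83 and 49 genes above 0.9. With 6 libraries, 1 of them apart, so many genes reach high values that closeness of outline is weakly resolved.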

How the data were processed

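Each library was made from 1.3 µg of Trizol-extracted RNA, per the labels' protocols. The authors deposited FPKM values for 16423 gene symbols; the tools fastp, HISAT2 and HTSeq and the build GRCm39 are named, per the submitters' processing notes. Gene annotation, strandedness and the counting of shared reads are not given in the sources used here.

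Low FPKM values move in steps of 1 read. Relative library totals came from the commonest ratio between libraries and the absolute total from 46 genes whose RefSeq span fits the steps; whole reads (tolerance 0.02) were then found for all 16423 genes. The smallest fitting length was used, so reads can come out too small where they share a divisor. Of each total 99.4% lay on the table's genes.

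The test was limma 3.58.1 in R 4.3.3, with variance trended on level, applied two-sided to log2(FPKM + 1) of genes averaging 1 FPKM or more, without covariates. It was also run on simulated data, where genes changed only upward and no library stood apart, so that run does not vouch for these data. Alternatives were a pseudocount of 0.1, no filter, TPM, quantile normalization, the replicate block, voom on recovered reads (mean of at least 10), a loess correction (span 0.3) for recovered length, and leaving out each library. Scripts used Python 3.11.15, numpy 2.4.6, pandas 2.3.3, scipy 1.17.1 and matplotlib 3.10.9.

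The genes and lists were chosen with earlier results of these data known. Named were Ybx1, the 10 genes, every called gene of each list with up to 3 of its other most abundant ones, and the 3 genes most like Cd36, Lpl, Fabp4 and Acsl1 (mean of at least 5 FPKM, without Gm and Rik symbols). Cfd, as the called adipocyte marker, and Slc27a6, Acsl6, Pmp2 and Fabp12 as relatives were named in addition, Cfd and Slc27a6 after their values were seen.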

Additional observations from a re-analysis of the deposited data

How the results depend on the processing

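Over 13 alternatives Ybx1 (-1.16 to -1.03), Slc27a1, Furin, Angptl4, Cav1 and Srebf1 kept their direction and their calls, and no alternative called any of the 10 genes lower. The count of those called higher was 2 with voom on recovered reads, with the length correction (Acsl4 each time), and 1 to 2 when libraries were left out (Acsl4 without siNC replicate 1, Cd36 without siNC replicate 2). Among all tested genes 577 were called higher and 664 lower without the filter, 646 higher with TPM, and, when each library was left out in turn, 543 to 970 higher and 608 to 1056 lower. Of all calls 46.3% were higher, and 29.2% with TPM. For the other pathway genes 6 were called lower with TPM, 5 with quantile normalization and 5 with voom; leaving out libraries gave 3 to 5 higher and 2 to 5 lower. Vldlr lost its call without the filter, Lrp1 without the filter and without siYBX1 replicate 2, Acot9 without siYBX1 replicate 2, and Them4 without the filter, with voom, and without siNC or siYBX1 replicate 2.

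Signs changed only for values near 0. When each library was left out in turn the log2 fold change ran from -0.017 to 0.17 for Lpl, from -0.022 to 0.074 for Acsl3, from -0.11 to 0.026 for Lmf2, from -0.12 to 0.017 for Lrpap1, from -0.054 to 0.048 for Acss2, from -0.028 to 0.16 for Acsm3 and from -0.057 to 0.027 for Acbd5. Acsl3 was at -0.024 with TPM and at -0.00035 with quantile normalization. With the length correction Acbd5 was at 0.016 and Acot13 at -0.012. The cause was not tested.

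With the replicate block 607 genes were called higher and 739 lower, and no call changed among Ybx1, the 10 genes and the other pathway genes tested and named here. Deviations of libraries with the same number correlated at -0.31, -0.13 and -0.25, and those with different numbers at -0.13 to 0.26. They were taken from the mean of 3 libraries in each group, so the values are tied together. Whether the numbers pair the samples cannot be told from them, and the labels state no pairing. Depth limits the scarce genes, with 46 to 118 reads per library for Slc27a6, 79 to 159 for Slc27a3, 190 to 289 for Them4 and 301 to 586 for Slc27a1.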

Other observations

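The 10 genes differed in where siNC replicate 1, the library that stood apart, lay among the controls. In siNC replicate 1, 6 of them (Cd36, Lpl, Fabp4, Fabp5, Acsl1 and Acsl3) had their lowest control value and the other 4 (Slc27a1, Slc27a4, Acsl4 and Acsl5) their highest, so that it was in the middle for none. For Acsl3 this place rests on a small gap, 40.86 against 40.92 FPKM in siNC replicate 2. The place of that library was not counted over all tested genes, so the split is not shown to be particular to the 10. Within siNC the coefficient of variation ran from 1.95% for Acsl5 and 2.84% for Acsl4 to 20.2% for Fabp4 and 22.3% for Fabp5. In siYBX1 it ran from 2.56% for Acsl4 to 12.1% for Acsl1.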
